A study of Mus musculus with 21 samples.

Results

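A group of 10 genes of bone matrix and of the cells that make bone was followed across sorted cells of the mouse main olfactory epithelium: Col1a1, Col1a2, Ibsp, Sparc, Spp1, Bglap, Bglap2, Alpl, Sp7 and Dmp1. They are 10 of 23587 genes in the table of mice with the gg8+OMP drivers and of 22918 in the table of gg8 mice, and all 10 were found in both. The genes were listed by name with their level in mCherry-negative cells already known, so the comparison of sorted neurons with those cells is described here without a test. Each mouse carried a tetO construct for mCherry with either HyperTRIBE alone (HT) or a Mex3a-HyperTRIBE fusion (MexHT). HyperTRIBE is an RNA-editing enzyme domain, and the protein Mex3a binds RNA. Expression came from gg8-tTA alone or from gg8-tTA with OMP-tTA. These drivers are active in olfactory sensory neurons (OSN), gg8-tTA in immature and OMP-tTA in mature ones. With both drivers (gg8+OMP) there were 6 MexHT OSN, 5 MexHT negative, 3 HT OSN and 3 HT negative libraries, and with gg8 alone 2 MexHT OSN and 2 MexHT negative libraries. The OSN were the mCherry-positive cells, labelled as immature and mature OSN with both drivers and as immature OSN with gg8. The negative cells were the mCherry-negative cells of the same mouse, so each mouse gave a matched pair, except MexHT mouse 6 with OSN only. All mice were transgenic, no wild-type mouse was among the libraries, and the ages of the mice are not given in the sources used here.

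Bone is built by osteoblasts, which secrete a matrix of type I collagen and then mineralise it, and some of them become enclosed in the matrix as osteocytes. The scaffold genes Col1a1 and Col1a2 encode the chains of type I collagen. Sparc (osteonectin), Ibsp (bone sialoprotein), Spp1 (osteopontin), Bglap and Bglap2 (osteocalcin) and Dmp1 (dentin matrix protein, made mainly by osteocytes) encode matrix proteins that bind mineral or collagen. Alpl encodes the phosphatase that removes an inhibitor of mineral growth, and Sp7 (osterix) is a transcription factor required for osteoblast formation, acting after Runx2. In the nose, the olfactory epithelium lies on thin turbinate bones. Of these genes, Spp1 is also well known from macrophages, Sparc from fibroblasts and glia, Alpl from many tissues, and type I collagen from fibroblasts.

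Several of these genes lie close together. In GRCm38 with the GENCODE M21 annotation, Dmp1 (chr5:104202613-104214102), Ibsp (chr5:104299171-104311469) and Spp1 (chr5:104435118-104441050) lie on the plus strand in one cluster, with Dspp before and Mepe among them. Bglap (chr3:88383501-88384464) and Bglap2 (chr3:88377736-88378699) are neighbours on the minus strand, next to Bglap3. Col1a1 is at chr11:94936224-94953042 and Sparc at chr11:55394500-55423183, far apart on one chromosome. Col1a2 (chr6:4504814-4541544), Alpl (chr4:137741733-137796384) and Sp7 (chr15:102356606-102367182) lie elsewhere. Bglap and Bglap2 are near-identical copies: 74.7% of the 50-base stretches of Bglap transcripts also occur in Bglap2, and 69.2% of those of Bglap2 occur in Bglap. Of the stretches of Bglap2, 37.9% also occur in Bglap3, and of those of Bglap3, 7.03% occur in Bglap2. The separate levels of these copies are therefore uncertain, since how reads were shared between copies is not given in the sources used here.

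The sequence just before the start of transcription is shown for 3 genes in which it holds the core site read by RUNX factors such as Runx2, the factor that commits cells to the osteoblast fate. RefSeq (GRCm38.p6) start regions were matched for 7 of the 10 genes (Bglap, Alpl, Dmp1, Ibsp, Spp1, Col1a2 and Sparc), which gave 10 windows of 250 bases upstream. The letters ACCACA, or TGTGGT on the other strand, occurred in 3 of these 10 windows and in 14.05% of 32851 such windows over all genes. The Bglap window is chr3:88384467-88384716 on the minus strand with the match starting 132 bases before the start. The Dmp1 window shown is chr5:104202367-104202616 on the plus strand with the match at 164 bases. The Spp1 window shown is chr5:104434861-104435110 on the plus strand with the match at 128 bases. Dmp1 and Spp1 each had another start window, which held no match. Capitals mark ACCACA. The sequences are given 5′ to 3′ on the strand of the gene.
Bglap: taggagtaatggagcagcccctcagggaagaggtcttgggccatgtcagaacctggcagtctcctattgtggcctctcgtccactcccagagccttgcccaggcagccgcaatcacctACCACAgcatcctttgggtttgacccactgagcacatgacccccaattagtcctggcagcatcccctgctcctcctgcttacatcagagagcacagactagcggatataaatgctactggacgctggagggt
Dmp1: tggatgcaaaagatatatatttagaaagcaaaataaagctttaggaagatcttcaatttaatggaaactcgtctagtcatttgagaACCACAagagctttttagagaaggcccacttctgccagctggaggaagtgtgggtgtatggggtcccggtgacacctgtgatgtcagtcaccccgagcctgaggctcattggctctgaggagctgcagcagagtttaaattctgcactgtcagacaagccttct
Spp1: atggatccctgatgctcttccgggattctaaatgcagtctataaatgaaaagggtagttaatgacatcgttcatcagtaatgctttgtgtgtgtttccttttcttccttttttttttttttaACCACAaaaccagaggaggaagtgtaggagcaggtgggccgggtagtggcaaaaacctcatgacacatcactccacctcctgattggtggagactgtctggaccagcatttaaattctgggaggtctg
A match is a stretch of letters and no measure of binding. The CCAAT box (CCAAT or ATTGG) was in 6 of the 10 windows against 33.8% of all windows, and TATAAA or TTTATA in 4 against 12.4%.

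RNA levels are given in TPM (a level corrected for transcript length and scaled to the same total in each library), so levels of different genes can be set side by side. Whole read counts recovered from the TPM values gave 7529648 to 15358921 counts per library. Omp, which marks mature OSN, was at 682 to 1597 TPM in MexHT OSN and at 46.9 to 1431 TPM in MexHT negative cells with both drivers, so the negative cells also held OSN RNA. With both drivers, Mex3a was at 328 to 1271 TPM in MexHT OSN and 24.0 to 61.5 TPM in HT OSN. In negative cells of these mice it was at 57.8 to 207 TPM in MexHT and 29.3 to 74.4 TPM in HT. There MexHT 1 lay within the HT range, and MexHT 2 to 5 lay above it, at 93.7 TPM or more. Xist, an X-linked RNA made in female cells, was at 0.140 TPM or less in both fractions of HT mice 1 and 3 and at 55.3 TPM or more in HT mouse 2 and every MexHT mouse with both drivers. Construct and Xist level are therefore hard to separate. In gg8 mouse 2 it was at 21.4 TPM in negative cells and at 159 TPM in OSN, although the label gives both to one mouse. Library names carry one date for the gg8 mice and another for the gg8+OMP mice, so driver and date cannot be told apart, and the gg8 table was scaled separately. The labels describe separate mice as replicates.

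Type I collagen was the most abundant product. In negative cells with both drivers, Col1a1 was at 6271, 9684, 8166, 11807 and 14353 TPM in MexHT mice 1 to 5 and at 8097, 4794 and 10847 TPM in HT mice 1 to 3. It was the gene with the highest TPM of its library in 6 of these 8 libraries, and ranked 4 in the others, MexHT 1 and HT 2. In OSN, Col1a1 was at 74.2 TPM in the lowest, 127 in the median and 152 TPM in the highest of 6 MexHT libraries and at 189, 54.6 and 51.3 TPM in HT. No OSN library came near a negative library. In gg8 mice 1 and 2 it was at 3158 and 3467 TPM in negative cells and at 22.4 and 35.2 TPM in OSN, with the same wide separation. Col1a2 followed it: 6074 ± 1897 TPM (SD, n = 5) in MexHT and 4770 ± 1872 TPM (SD, n = 3) in HT negative cells, against 61.6 ± 12.2 TPM (SD, n = 6) and 52.1 ± 43.9 TPM (SD, n = 3) in OSN. The ratio of Col1a1 to Col1a2 was narrow in the 8 negative libraries, 1.61 to 1.72, and higher in all 9 OSN libraries, 1.79 to 2.22. In the gg8 table it was 1.82 and 1.96 in negative cells and 2.40 and 2.52 in OSN.

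**Figure D1:**
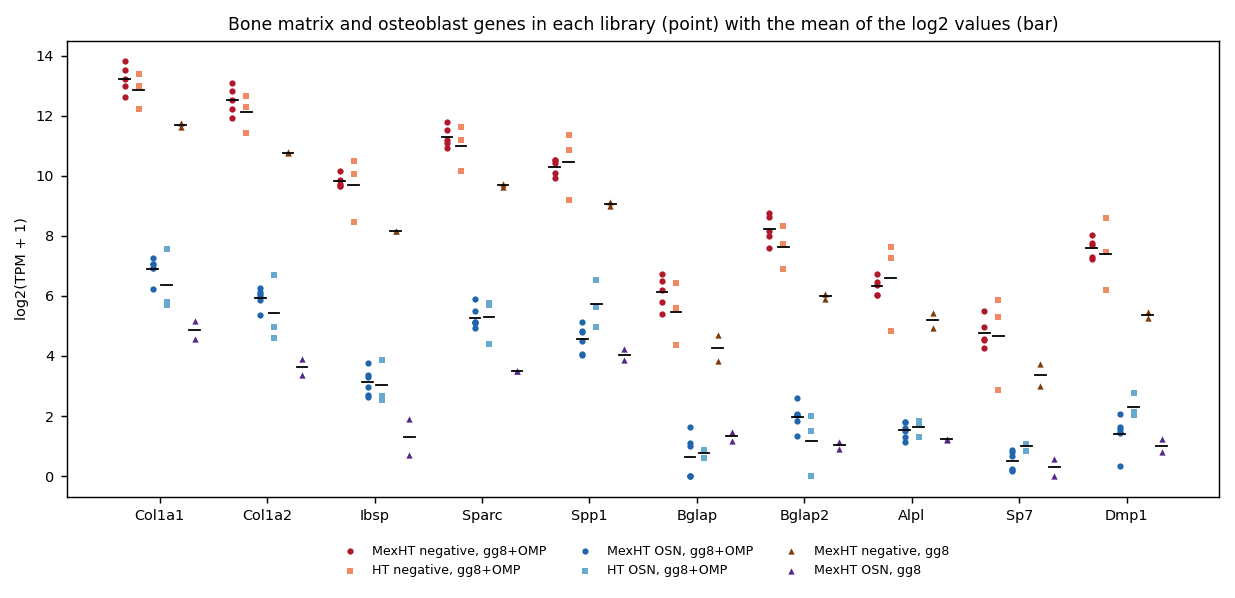
Level of each gene as log2(TPM + 1) in every library (1 point each), grouped by construct, fraction and driver, with the group mean of the log2 values as a bar. All negative libraries lie above all OSN libraries for each of the 10 genes within each driver; Col1a1 in negative cells with both drivers spans 4794 to 14353 TPM.

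The matrix proteins came next. Averaged over the 8 negative libraries, Sparc was at 2449 TPM, Spp1 at 1439 TPM and Ibsp at 926 TPM, and this order held in each of the 8. Ibsp, the most bone-restricted of these, was at 809, 854, 803, 921 and 1144 TPM in MexHT and at 1074, 355 and 1445 TPM in HT negative cells. It was at 5.17 to 12.6 TPM in MexHT OSN (median 7.85) and at 13.7, 5.38 and 4.76 TPM in HT OSN, so the fractions lay far apart. Spp1 was at 1286 ± 234 TPM (SD, n = 5) in MexHT and 1695 ± 1039 TPM (SD, n = 3) in HT negative cells, and Sparc at 2598 ± 645 and 2201 ± 997 TPM. In the gg8 negative libraries Ibsp was at 285 and 283 TPM, Spp1 at 557 and 513 TPM and Sparc at 787 and 854 TPM.

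Osteocalcin and Dmp1, products of mature osteoblasts and osteocytes, were less abundant. Bglap2 was at 311 ± 99.3 TPM (SD, n = 5) in MexHT and 215 ± 99.99 TPM (SD, n = 3) in HT negative cells. Bglap was lower, at 72.4 ± 26.1 and 50.4 ± 32.7 TPM. Bglap3, on the other side of Bglap2, was at 1.72 to 4.79 TPM over these 8 libraries. Dmp1 was at 198 ± 45.4 TPM in MexHT and 210 ± 159 TPM in HT negative cells, below Bglap2 in 7 of 8 libraries. Its neighbours on chromosome 5 were much lower: Dspp, the dentin gene of odontoblasts, was at 0.433 TPM or less and Mepe, an osteocyte gene, at 0.190 to 3.67 TPM in the same libraries. Alpl was at 80.6 ± 16.9 and 127 ± 88.7 TPM. Sp7 was the lowest of the 10, at 27.5 ± 10.3 TPM in MexHT and 33.8 ± 25.6 TPM in HT.

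In OSN these genes were near the limit of counting. Bglap had 0 to 6 counts per OSN library with both drivers, Bglap2 0 to 7 and Sp7 1 to 9, so no fold of OSN against negative cells is given for them, and a library at 0 allows up to 3 counts. Dmp1 had 2 to 45 counts and Alpl 10 to 31. Intervals from counts cover counting error only, since no molecular identifiers are described.

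Set against negative cells, the other 7 genes differed in OSN by -4.80 (Alpl) to -6.69 (Ibsp) on the log2(TPM + 1) scale in MexHT, by -4.76 (Spp1) to -6.71 (Col1a2) in HT and by -3.96 (Alpl) to -7.14 (Col1a2) in gg8 mice. The scale understates the change of low genes. The libraries of both fractions did not overlap for any of the 10 genes in any of these comparisons, where 19.6%, 18% and 30.2% of all genes tested were lower in OSN without overlap. The genes were chosen for this difference, so it supports nothing further. In bulk RNA, fewer cells of a type and less RNA per cell cannot be told apart.

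Within a mouse, the genes did not all fall to the same percent of the negative level. Col1a1 in OSN was at 0.908% to 2.11% of the same mouse's negative level in 5 MexHT mice and 0.473% to 2.34% in 3 HT mice, and Ibsp at 0.477% to 1.15% and 0.329% to 1.52%. Spp1 was at 1.40% to 1.98% in MexHT and 2.64% to 5.17% in HT mice with both drivers. In MexHT gg8 mice 1 and 2 it was at 2.41% and 3.45%, the latter within the HT range. Alpl reached 8.67% in HT mouse 2, whose negative cells had its lowest level. For comparison, the granulocyte genes Elane and Mpo encode proteins of neutrophil granules. They were at 0.211% to 1.51% and 0.471% to 1.89% in the 8 mice with both drivers. The OSN libraries of these mice held 3 to 11 counts of Elane and 36 to 84 of Mpo, so the Elane percents are uncertain.

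**Figure D2:**
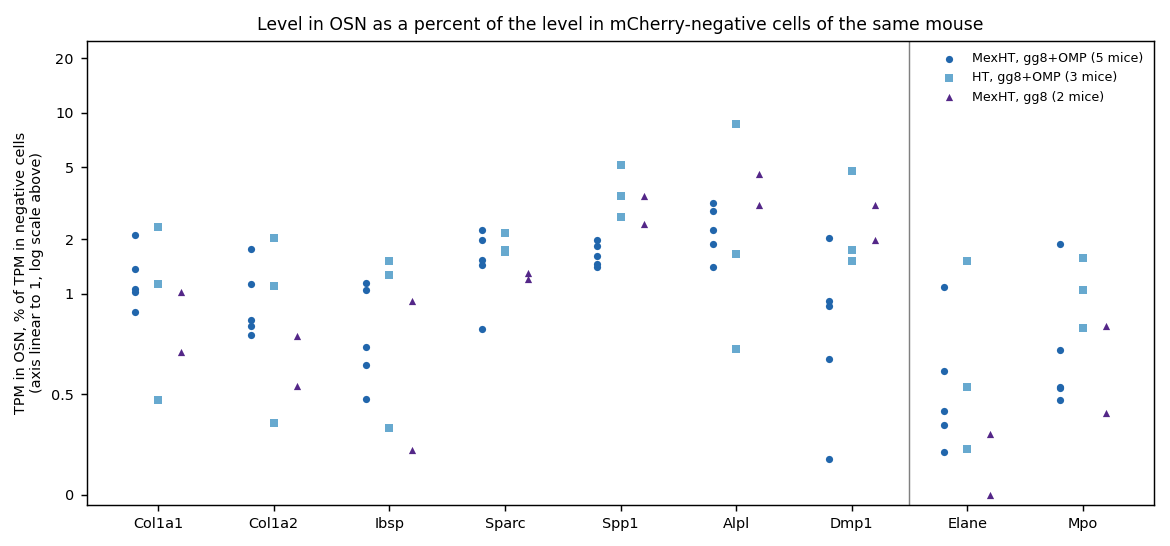
Level in OSN as a percent of the level in negative cells of the same mouse (1 point per mouse). The axis is linear to 1 and logarithmic above. The 7 genes other than Bglap, Bglap2 and Sp7 are shown, with the granulocyte genes Elane and Mpo right of the line. Elane had 11 counts or fewer in each of these OSN libraries, and Dmp1 had 2 in MexHT 3 with both drivers. Spp1 lies at 2.64% to 5.17% in the 3 HT mice and 1.40% to 1.98% in the 5 MexHT mice with both drivers. In MexHT gg8 mice 1 and 2 it lies at 2.41% and 3.45%.

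Among the 8 negative libraries with both drivers, the 10 genes shared their lowest library but not their highest. Their summed level was 1.48% to 3.01% of all TPM in MexHT and 0.992% to 2.56% in HT negative cells, and 0.671% and 0.703% in the gg8 negative libraries. HT mouse 2 had the lowest level of all 10 genes among the 8 libraries with both drivers. MexHT mouse 5 was highest for Col1a1, Col1a2, Sparc, Bglap and Bglap2, and HT mouse 3 for Ibsp, Spp1, Alpl, Sp7 and Dmp1. The standard deviation of the log2 level over the 8 libraries was 0.50 (Sparc) to 0.92 (Sp7), against a median of 0.32 and a 90th percentile of 0.73 over the 13466 genes whose mean reached 5 TPM. From the lowest to the highest library Col1a1 differed 2.99-fold, Ibsp 4.07-fold, Alpl 7.22-fold and Sp7 8.98-fold.

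**Figure D3:**
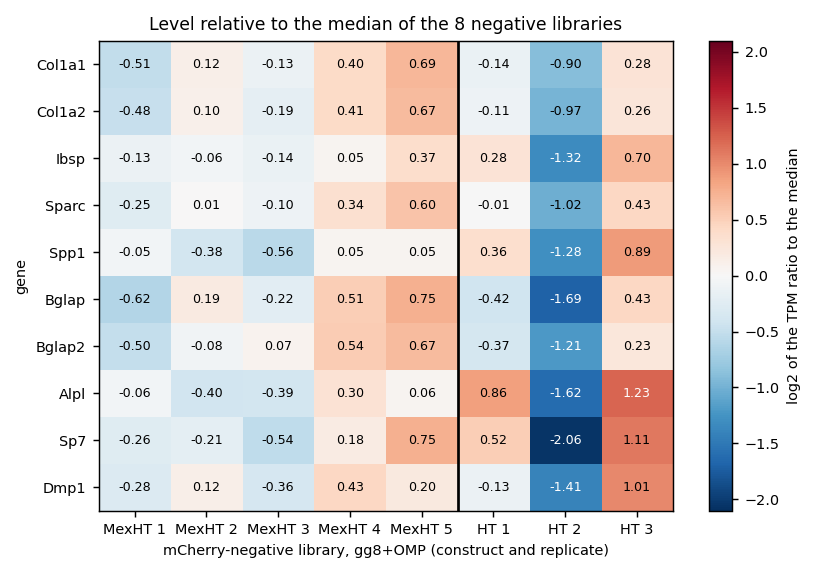
Level of each gene (rows) in each of the 8 negative libraries with both drivers (columns), as the log2 ratio to the median of these libraries. HT 2 is the lowest library in every row, and the highest is MexHT 5 in 5 rows and HT 3 in the other 5.

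The proportions within the group also differed between libraries. Spp1 was at 22.1%, 22.7% and 24.5% of the Col1a1 level in MexHT 1, HT 1 and HT 3, and at 10.3% to 12.6% in the other 5 negative libraries. The same 3 libraries had Ibsp at 12.9% to 13.3% of Col1a1 against 7.40% to 9.83%, and Alpl at 1.29% to 1.90% against 0.573% to 0.885%. This split was chosen after the values were seen, and it crosses the constructs. The summed level of 10 fibroblast markers was 1245, 1112 and 1359 TPM in those 3 libraries and 341 to 793 TPM in the others. Its part in the split was not tested.

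Granulocyte and osteoclast marker sums were lowest and highest in the same negative libraries as the summed bone genes, whereas the chondrocyte and fibroblast sums were highest in HT 3. The summed level of 10 marrow granulocyte genes, among them S100a9, Ngp, Elane and Camp, was 6400 to 16647 TPM in the 8 negative libraries and 160 to 462 TPM in the 9 OSN libraries, lowest in HT 2 and highest in MexHT 5 among negative cells. Osteoclast markers, led by Mmp9, summed to 268 to 529 TPM in these negative libraries and 84.6 to 177 TPM in OSN, with HT 2 lowest and MexHT 5 highest again. Nfatc1 of this list, a transcription factor also made outside osteoclasts, went the other way, at 66.7 TPM in MexHT negative cells and 97.7 TPM in MexHT OSN, and made up most of the OSN sum. Of the osteoclast list, Mmp9 averaged 186 TPM in MexHT and 154 TPM in HT negative cells, and Ctsk 61.0 and 57.3 TPM. Oscar, Ocstamp and Calcr averaged 1.43 TPM or less in both. Which cells made Mmp9 was not tested. Chondrocyte markers, led by Col2a1, ranged from 60.3 TPM in MexHT 2 to 1300 TPM in HT 3. Marker sums of pericytes and smooth muscle were 317 to 1039 TPM, and those of endothelial cells 33.4 to 135 TPM. Their part in the levels of the bone genes was not tested.

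By the smallest root mean square difference of centred log2 levels over the 17 libraries with both drivers, among 13338 genes, the genes outside the group most like Col1a1 were Col11a2 (0.47), Camp (0.48), Col5a2 (0.50), Fcnb (0.51) and Chil3 (0.54). Those most like Ibsp were Elane (0.49), Camp (0.51), Fcnb (0.52), Lum (0.55) and Retnlg (0.55). Col11a2 and Col5a2 are fibrillar collagen genes and Lum encodes a collagen-binding proteoglycan, whereas Camp, Fcnb, Chil3, Elane and Retnlg are genes of granulocytes and their precursors or related myeloid cells. Within the group, Col1a1 was nearest to Col1a2 (0.13) and Bglap2 (0.34), and farthest from Sp7 (1.32). The difference between fractions makes up most of this likeness, and all 17 values per gene share it.

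Whether the Mex3a fusion changed the bone genes was asked by comparing MexHT with HT within each fraction, a comparison that did not choose the genes. The fits used limma on log2(TPM + 1) for every gene whose mean reached 1 TPM, with Benjamini-Hochberg adjustment over all of them. In negative cells none of the 10 genes passed an adjusted p of 0.05, and none had an unadjusted p under 0.05. No gene at all passed there with limma (0 of 16860, or 0%, with 20.6% at an unadjusted p under 0.05), and limma with voom on the recovered counts called 0 of the 10 as well. The median difference of the 10 was 0.26 on the log2 scale, MexHT minus HT, with 8 above 0, and the median over all genes was -0.01. Markers of other cells differed in the same libraries: all 10 marrow granulocyte markers were above 0 (median 0.53) and all 10 mature OSN markers below 0 (median -1.63, 5 at an unadjusted p under 0.05), with none called. Their part in the bone values was not tested. Bglap2 differed by 0.59 (SE 0.35, 95% interval -0.22 to 1.39, limma adjusted p = 0.345). Col1a1 differed by 0.37 (SE 0.37, limma adjusted p = 0.571), Col1a2 by 0.38 (interval -0.43 to 1.19) and Alpl by -0.26 (interval -1.52 to 1.01, limma adjusted p = 0.806). The intervals do not show that the constructs acted alike. Leaving out HT mouse 2 gave 4 of the 10 an unadjusted p under 0.05, still with none past the adjusted threshold. It turned Ibsp to -0.47 and Dmp1 to -0.42. With the Xist level as a covariate 8 of the 10 had an unadjusted p under 0.05 and none passed. Spp1 then turned from -0.17 to 1.23 and Alpl from -0.26 to 1.62 (limma adjusted p = 0.17 for both). The share of all genes under 0.05 is not given for either of these fits. Neither count therefore shows a change particular to the bone genes.

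In OSN, Spp1 was the exception. It was at 27.3, 15.4, 15.7, 21.7, 27.1 and 34.4 TPM in MexHT mice 1 to 6 and at 48.5, 30.5 and 91.9 TPM in HT mice 1 to 3. HT 1 and HT 3 lay above every MexHT library, and HT 2 lay within the MexHT range. Spp1 was lower in MexHT OSN, with a log2 difference of -1.15 (SE 0.34, 95% interval -1.91 to -0.40, limma adjusted p = 0.0235). It was the only one called of the 8 bone genes that passed the filter (Bglap and Sp7 did not), where 36.8% of 16067 genes were called, 16.8% lower and 19.9% higher, so 1 in 8 is no more than the background. The call was lost without HT 1 (-1.19, limma adjusted p = 0.0637), without HT 3 (-0.74, limma adjusted p = 0.104) and with the Xist level as a covariate (-0.29, limma adjusted p = 0.77). HT 1 and HT 3 are the mice with almost no Xist.

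Macrophage markers differed in the same direction as Spp1. All 10 (C1qa, C1qb, C1qc, Csf1r, Adgre1, Cd68, Mrc1, Fcgr1, Ms4a7 and Cx3cr1) were called lower in MexHT OSN, with a median of -2.63. They summed to 1144, 925 and 4203 TPM in HT OSN 1 to 3 and to 185 to 382 TPM in MexHT OSN, so the HT library highest in Spp1 was also highest in these markers. Spp1 was at 25.6%, 56.0% and 179% of Col1a1 in the 3 HT OSN libraries. It was at 11.6% to 28.4% in MexHT OSN with both drivers. In the 2 MexHT OSN libraries with gg8 alone it was at 60.0% and 50.2%, and the macrophage markers summed to 235 to 340 TPM. In negative cells with both drivers the markers summed to 126 to 438 TPM. None of the 10 was called between constructs there, where 0 of 16860 genes were called, so this does not set the fractions apart. The part of macrophage RNA in the Spp1 difference was not tested.

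The other bone genes did not pass in OSN. Dmp1 was at 3.06 to 5.83 TPM in HT and 0.262 to 3.18 TPM in MexHT OSN, a difference of -0.89 (SE 0.36, 95% interval -1.69 to -0.10, limma adjusted p = 0.0741). Col1a1 differed by 0.55 (interval -0.28 to 1.38, limma adjusted p = 0.269) and Col1a2 by 0.52 (interval -0.34 to 1.38, limma adjusted p = 0.311). HT OSN 1 decided these: without it Col1a1 was higher in MexHT by 1.16 (limma adjusted p = 0.0096) and Col1a2 by 1.16 (limma adjusted p = 0.00886), both past the threshold. Ibsp (0.09), Sparc (0.00) and Alpl (-0.10) differed little, with intervals of -0.68 to 0.86, -0.68 to 0.68 and -0.64 to 0.45. Bglap2, with 0 to 7 counts per library, did not pass (limma adjusted p = 0.147), and the size of its difference is not given.

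The difference between fractions was then compared between constructs over the 17 libraries. None of the 10 genes passed, with 12.4% of 16785 genes called, and none had an unadjusted p under 0.05, where 27.9% of all genes did. Limma with voom called 0 of the 10 as well. Spp1 differed by -0.98 (SE 0.57, 95% interval -2.19 to 0.22, limma adjusted p = 0.278). With the mouse as a block, since both fractions come from one animal, it differed by -1.10 (SE 0.21) and passed (limma adjusted p = 0.00923). It was the 1 bone gene called of 10 in that fit, where 15.5% of all genes were called. The macrophage markers moved the same way: 10 of 10 were called lower without the block (median -2.56) and 9 of 10 with it (median -2.65), and their part in the Spp1 value was not tested. Dmp1 differed by -1.09 (limma adjusted p = 0.246), and by -1.68 without HT negative 3 (limma adjusted p = 0.0473). For the collagen genes the interaction was 0.19 for Col1a1 (interval -0.95 to 1.32) and 0.14 for Col1a2 (SE 0.55).

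**Figure D4:**
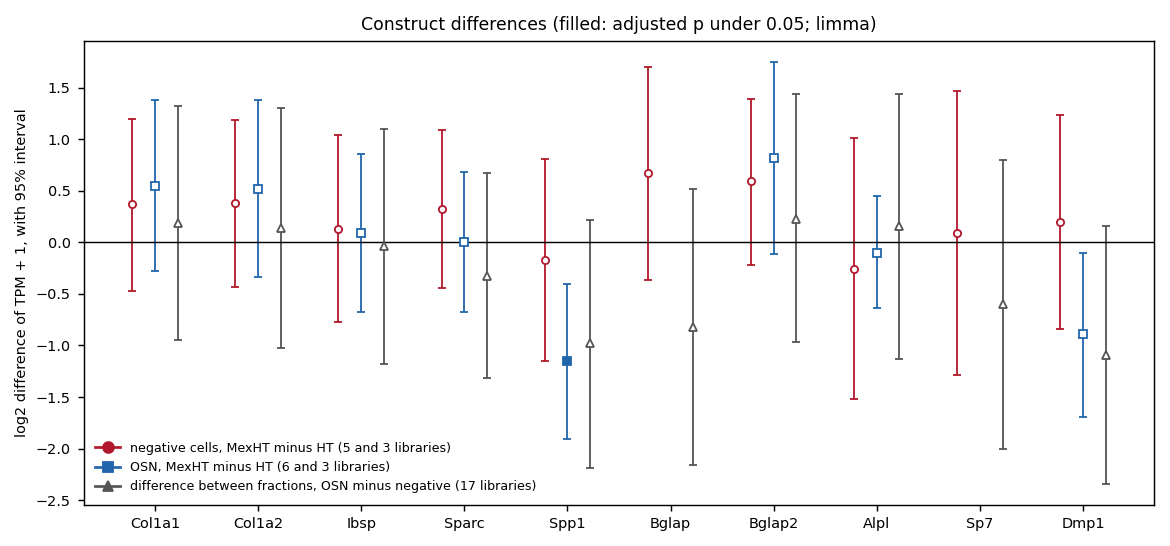
Log2 difference of TPM + 1 with its 95% interval (limma) for each gene: MexHT minus HT in negative cells, MexHT minus HT in OSN, and the difference of these (interaction, without a mouse block). The filled marker, Spp1 in OSN at -1.15, is the one that passed an adjusted p of 0.05; Bglap and Sp7 have no OSN value because they were under the filter, and the fitted OSN and interaction values of Bglap, Bglap2 and Sp7 rest on fewer than 10 counts per OSN library.

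Genes that act with these 10 were counted from lists in the comparison of fractions. The lists were drawn up with earlier results of these data known, so their counts and p-values describe these libraries and are no independent evidence of a direction. Of 29 other osteoblast and osteocyte genes, 21 of 26 tested were called lower in MexHT OSN than in MexHT negative cells, and 1 higher (Dlx6), with a median of -2.96. Of 26 other matrix and mineral genes, 23 of 25 tested were lower (median -3.70), and of 24 genes that process type I collagen, 21 of 24 were lower and 1 higher (Mia3; median -2.11). Over all genes tested, 27.6% were called lower, 35.8% higher and 63.4% in all, and the median was 0.16. In HT the lower calls were 17 of 26, 17 of 25 and 13 of 24, against 9.11% of all genes (11.3% in either direction), and in gg8 mice 9 of 25, 15 of 25 and 6 of 23, against 7.2% (8.32% in either direction). Limma with voom on the recovered counts called 22 genes of the 3 lists in HT in place of 47, and the gg8 calls, 30 in all, fell to 0 without either negative library or without OSN 2.

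Runx2, the factor upstream of Sp7, was at 26.4 ± 6.84 TPM (SD, n = 5) in MexHT negative cells and 0.666 ± 0.296 TPM (SD, n = 6) in MexHT OSN, a difference of -4.03 (limma adjusted p = 8.74e-09). Col22a1 had the largest fall of the osteoblast list, from 127 to 0.807 TPM (-6.08, SE 0.27, limma adjusted p = 3.8e-09). The osteoblast genes Cdh11 (a cadherin), Ifitm5 (a membrane protein of osteoblasts), Wif1 (a Wnt inhibitor) and Pth1r (the parathyroid hormone receptor) differed by -5.11 (Cdh11) to -4.72 (Pth1r) in the same comparison. Phex, which is made by osteocytes, differed by -4.09. Sost and Fgf23, hormone-like products of osteocytes, and Mepe and Dspp did not reach the filter. Runx2, Phex, Sost, Fgf23, Dlx6 and Mia3 were named after their values were seen.

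Among the matrix genes, Col5a2, Col11a2 and Col5a1, which encode minor fibrillar collagens, differed by -6.02, -5.85 and -5.70. Mmp13, a collagenase, was at 196 TPM in MexHT negative cells and 2.91 TPM in MexHT OSN (-5.68), and Mgp, an inhibitor of mineralisation that is also made by cartilage and vessels, was at 358 and 6.75 TPM (-5.25). Of the processing genes, Pcolce (an enhancer of procollagen cleavage), Lox and Loxl2 (which crosslink collagen), and Serpinh1 and Fkbp10 (collagen chaperones) differed by -5.19 (Pcolce) to -4.48 (Loxl2). Serpinh1 was at 458 and 16.8 TPM. Of the 15 genes named by size from the 3 lists, 15 were also called lower in HT mice and 14 in gg8 mice. In gg8 mice Serpinh1 did not pass (-2.96, limma adjusted p = 0.128). Over all genes tested, 9.11% were called lower in HT mice and 7.2% in gg8 mice. The 15 were picked for their large falls between the MexHT fractions, so these counts are no independent evidence.

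**Figure D5:**
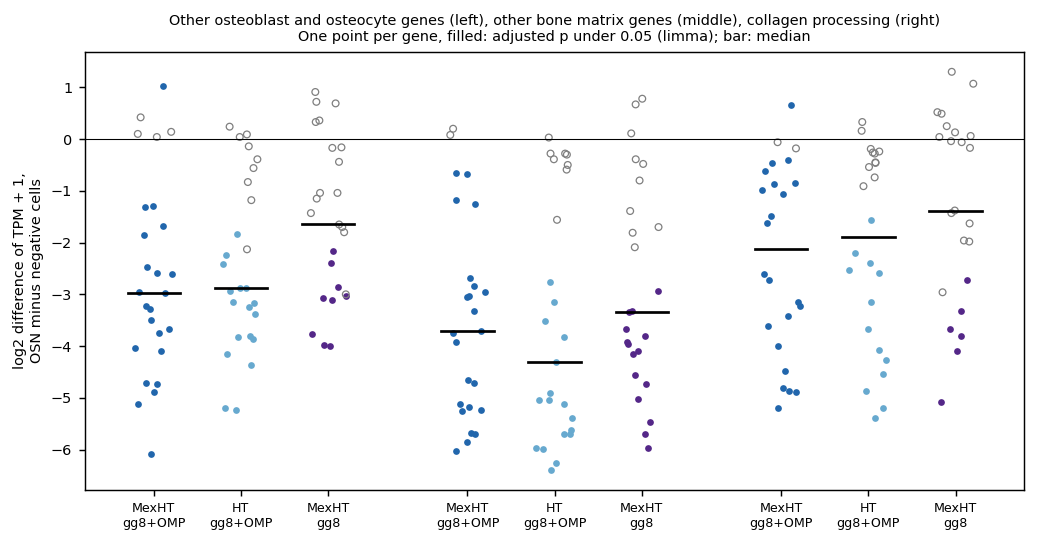
Log2 difference of TPM + 1, OSN minus negative cells, for each tested gene of the 3 lists (1 point per gene, filled where limma's adjusted p was under 0.05, bar at the median) in MexHT and HT mice with both drivers and in MexHT gg8 mice. The medians in MexHT mice with both drivers are -2.96, -3.70 and -2.11.

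Between constructs, the lists showed 0 calls of 76 genes tested in negative cells (4 at an unadjusted p under 0.05). Over all genes in that limma fit, 0 of 16860 were called and 20.6% had an unadjusted p under 0.05. In OSN 10 of 63 tested genes were called, below the 36.8% of all genes. Neuronal markers shifted in the same comparison, with 9 of 10 mature OSN markers called lower (median -1.53) and 7 of 10 immature OSN markers called higher (median 0.85), and their part in these calls was not tested. With the Xist level as a covariate 2 of the 10 calls remained (Creb3l1 and Sec24d), and 5 held with any 1 library left out (these, Phospho1, Enpp1 and Ank). The mineral genes Phospho1, which releases phosphate for mineral (15.1 TPM in MexHT and 78.0 TPM in HT OSN, -2.32), Enpp1, which makes the mineral inhibitor pyrophosphate (8.84 and 39.9 TPM, -2.18), and Ank, which exports it (-0.63), were lower in MexHT OSN. The phosphate transporters Slc20a1 (0.77) and Slc20a2 (0.49) and the osteoblast gene Kazald1 (0.63) were higher. Of the processing genes, Creb3l1, a factor that drives type I collagen transcription in osteoblasts, was at 13.5 and 103 TPM (-2.88), Sec24d (-0.97) and Crtap (-1.08) were lower, and Plod2 (1.18) was higher. In negative cells Creb3l1 was at 129 ± 27.5 TPM (SD, n = 5) in MexHT and 146 ± 12.6 TPM (SD, n = 3) in HT. Creb3l1 in HT OSN thus lay near its level in negative cells, unlike Col1a1 and Col1a2. For the other genes called lower, HT OSN and HT negative means were 39.9 and 39.1 TPM (Enpp1) and 107 and 95.3 TPM (Sec24d). They were 86.4 and 106 TPM for Ank, 78.0 and 107 TPM for Phospho1, and 10.0 and 52.6 TPM for Crtap.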

How the data were processed

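Cells were dissociated with papain and sorted, RNA was extracted with TRIzol, and stranded total RNA libraries were made with a SMARTer Pico Input kit, per the labels' protocols. FastQC, cutadapt, STAR, bedtools and mm10 are named in the submitters' processing notes, and the counting program, annotation and use of strand are not given in the sources used here. The authors deposited 2 tables of TPM values, 1 per driver, each scaled on its own, so tests were made within a table. Column names identified all 21 samples.

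TPM values stepped by whole reads, and counts were recovered for 23614 of 23614 genes of the gg8+OMP table (tolerance 0.01 counts; wrong library scales gave 0 of 300) and 22780 of 22813 of the gg8 table (tolerance 0.1; 99.86%, a wrong factor 9.43%). These gave the depth of 7529648 to 15358921 counts per library and a floor of 3 counts. Symbols turned into dates by a spreadsheet were left out.

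Fits used limma 3.58.1 (R 4.3.3; empirical Bayes with a trend) on log2(TPM + 1) for genes whose mean reached 1 TPM in the groups compared, two-sided, with Benjamini-Hochberg adjustment and a threshold of 0.05. The test was checked on simulated data. The members and gene lists were chosen with earlier results of these data known. Genes were named by rule: all members, the 5 list genes per list with the largest change between fractions that passed with no overlap, up to 3 per direction between constructs, paralogs and cluster neighbours, the leading markers, and the 5 genes nearest to Col1a1 and to Ibsp. Alternatives were other pseudocounts (0.1 and 5), no filter, median-of-ratios scaling, voom on recovered counts, the replicate number as a block, Xist as a covariate, all groups in 1 fit and leaving out each library. OSN and negative cells of 1 number come from 1 mouse, per the labels, so the block is a mouse there (correlation of deviations -0.113 to 0.475). Between constructs the labels tie numbers to no shared batch; the correlations were 0.343, 0.417 and 0.23 in negative cells and 0.113, 0.133 and -0.234 in OSN. The reported values come from fits without the block, unless the block is named.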

Additional observations from a re-analysis of the deposited data

How the results depend on the processing

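Of 204 values of single bone genes under other settings 195 kept their direction and side of the threshold, and of 322 with 1 library left out 279 did. The cause of the changes was not tested.

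The count of bone genes called between constructs in OSN, 1, became 0 with the Xist covariate and 0 to 2 with 1 library left out. In the interaction 0 became 1 with the replicate block, and 0 to 1 with 1 library left out. The replicate block changed no other call of the 10 genes. Of the listed bone genes, the 10 called between constructs in OSN became 2 with Xist and 6 to 16 with 1 library left out (16 without MexHT OSN 5, 6 without HT OSN 1). The 47 in HT fractions became 22 with voom, and the 30 in gg8 fractions 0 to 39 with 1 library left out. A group left with 1 gg8 library is assumed to vary like the other.

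Reversed directions, none past the threshold, were as follows. In negative cells Spp1 was at 1.23 and Alpl at 1.62 with Xist, and Sp7 at -0.22 and Dmp1 at 0 with the replicate block. In OSN Sparc was at 0.07 with voom and 1.09 with Xist. In the interaction Bglap2 was at -0.27 with a pseudocount of 5.

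With 1 library left out, the log2 difference in negative cells ranged from -1.13 to 0.27 for Alpl, -0.42 to 0.78 for Dmp1, -0.47 to 0.54 for Ibsp, -0.80 to 0.69 for Sp7, -0.09 to 0.64 for Sparc and -0.80 to 0.28 for Spp1. In OSN it ranged from -0.27 to 0 for Alpl, -0.16 to 0.52 for Ibsp and -0.45 to 0.24 for Sparc. In the interaction the range was -0.37 to 1.03 for Alpl, -0.35 to 0.65 for Bglap2, -0.14 to 0.79 for Col1a1, -0.27 to 0.78 for Col1a2, -0.45 to 0.56 for Ibsp, -1.19 to 0.30 for Sp7 and -0.77 to 0.08 for Sparc.

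Depth limits Bglap, Bglap2 and Sp7 in OSN, where every library held fewer than 10 counts. The HT groups hold 3 mice, and the gg8 groups 2.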
